A study of Homo sapiens with 6 samples.

Results

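The genes of the 26S proteasome and of the factors that assemble it were followed in KGN cells, which grow from a human granulosa cell tumour of the ovary, after SNHG5, a long non-coding RNA, was targeted with siRNA. Members were all gene names of the count table that start with PSMA, PSMB, PSMC, PSMD, PSME, PSMF or PSMG and a number, which gave 49 of 20030 names. By role, 19 belong to the core particle, 17 to the base and lid of the regulatory particle, 7 are assembly factors and 5 are activators or the inhibitor. The remaining name, PSMC3IP, met the name rule but has none of these roles: it encodes a partner of the meiotic recombinases and is no part of the proteasome. Both groups were KGN cells of wild-type genotype, transfected either with a negative control siRNA (3 libraries) or with an siRNA against SNHG5 (3 libraries), and harvested 48 h later. The study asked which genes respond to SNHG5 knockdown in this line. Libraries were made from 1.0 µg of total RNA with an mRNA-seq kit, and held 18232634 to 22088913 counts each. KGN is a single tumour-derived line, and the labels do not say whether the libraries of a group came from separate cultures, so every p measures the spread between these libraries, which may be technical. SNHG5 itself was not analysed here. Of the granulosa cell markers, GATA4, NR5A1, FOXL2 and STAR were detected, at 106.2, 35.8, 25.3 and 19.2 CPM in the control mean (CPM are counts scaled to the library total), FSHR was low (3.24 CPM), and AMHR2, INHA and CYP19A1 were each below 0.5 CPM.

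The proteasome is a barrel-shaped protease that degrades proteins tagged with ubiquitin. Its core particle has outer rings of alpha subunits, which gate the entrance, and inner rings of beta subunits, of which PSMB5, PSMB6 and PSMB7 carry the active sites. The regulatory particle sits on the ends of the barrel: the ring of ATPases in its base unfolds the substrate, and its lid holds the enzyme that removes the ubiquitin chain. When protein breakdown falls short, the transcription factor NFE2L1 (NRF1) raises the subunit genes together through antioxidant response elements in their promoters. In the ovary, granulosa cells nurse the oocyte and make its steroid hormones, and KGN cells are used as a model of them.

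PSMA8, the testis alpha subunit, and PSMB11, the thymus beta subunit, were at 0 counts in all 6 libraries, so each allows at most 3 counts per library (0.136 to 0.165 CPM), and were not tested. The other 47 members entered the test (edgeR's quasi-likelihood fit across all 12508 tested genes, Benjamini-Hochberg adjustment, adjusted p under 0.05). After SNHG5 siRNA 5 members rose and 8 fell, together 27.7% of the members tested, beside 40.2% of all tested genes. RNA was taken from whole cultures, so fewer cells with a transcript and less of it per cell cannot be told apart. The rises were PSMC3IP, PSMC3, PSMD2, PSMG2 and PSMD14, and 20.3% of all tested genes rose. The falls were PSMB10, PSMD6, PSME2, PSMB9, PSMA6, PSMB3, PSMC5 and PSME1, and 19.9% of all tested genes fell. Without PSMC3IP, 12 of 46 members passed (26.1%). At an unadjusted p under 0.05 there were 20 of the 47. The share of all tested genes at that threshold was not computed, so this count cannot be set against 40.2%.

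All of these differences were small. No member reached a log2 fold change of 0.5 in either direction, which 11.9% of all tested genes did. The median log2 fold change was 0.000622 over the members and -0.005246 over all tested genes, and the median size of the change without its sign was 0.112 and 0.173. The members were measured more precisely, with a median SE of 0.060 beside 0.076 for all tested genes. The part this plays in the contrast of sizes was not tested. The plot of fold changes by role shows members of each direction in the base and in the lid. In the core particle 0 rose and 4 of 17 fell (23.5%). Among the activators and inhibitor 0 rose and 2 of 5 fell (40%). Of all tested genes 20.3% rose and 19.9% fell. These counts by role changed between fits. Without SNHG5 siRNA replicate 2, 0 core members rose and 9 fell. Without SNHG5 siRNA replicate 3, 1 core member rose and 1 fell, and 0 activators fell.

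**Figure D1:**
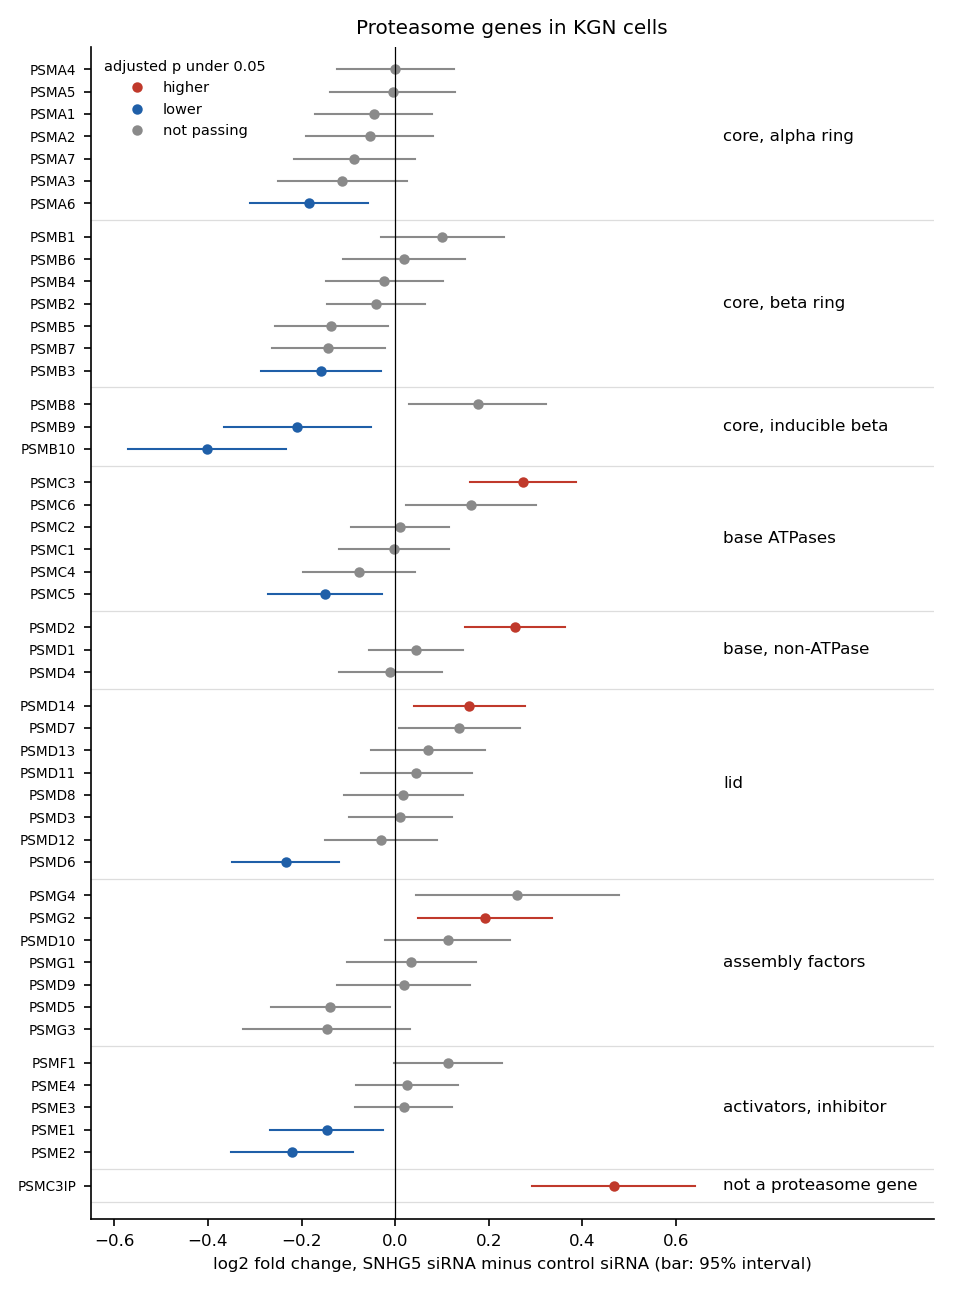
Log2 fold change (x axis, SNHG5 siRNA minus control siRNA, n = 3 libraries a group) of the 47 tested members (y axis), grouped by role, with the 95% interval of the edgeR fit as a bar. Red points passed as higher, blue points as lower and grey points did not pass; the range runs from -0.40 (PSMB10) to 0.47 (PSMC3IP).

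One library stood apart within its group in the members' values. SNHG5 siRNA replicate 2 had the highest CPM of its group for 42 of the 47 members (control replicate 2 for 26), and for 17 of 17 core members. Over all genes, its deviation from its group mean fell with transcript length (Spearman's rho -0.509, a description across 12348 genes; -0.266 to 0.412 in the other 5 libraries), and members have short transcripts, with a median of 1581 bases beside 3495.5 for all tested genes. Without SNHG5 siRNA replicate 2, 4 members rose and 13 fell (36.2% of the members), and 5608 of 12624 tested genes passed. Without SNHG5 siRNA replicate 3 instead, 8 rose and 2 fell (21.3%), and 4345 of 12616 genes passed. Leaving out SNHG5 siRNA replicate 1 or a control library left 3 to 4 rises and 3 to 4 falls (14.9% to 17%). Over all genes 3991 to 4303 then passed. The part that transcript length plays in the members' values was not tested beyond the length-corrected fit. In that fit 11 members rose and 9 fell (42.6%), and 5730 of 12508 genes passed. In every fit run, 4 members kept their call: PSMC3, PSMD2 and PSMC3IP higher, and PSMB10 lower.

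In the alpha ring PSMA6 fell and the other 6 tested subunits did not pass. PSMA6 read 126.9, 143.3 and 136.2 CPM in the control libraries and 119.8, 126.7 and 112.3 CPM after SNHG5 siRNA. The groups did not overlap, although the highest treated and the lowest control library lay close together. Its log2 fold change was -0.18 (SE 0.060, adjusted p = 0.0196), and leaving out control replicate 2 or 3, or SNHG5 siRNA replicate 1 or 3, ended the call. PSMA7, the most abundant alpha subunit per length, had 183.8 FPKM (fragments scaled to transcript length and library size) over the 6 libraries and a log2 fold change of -0.09 (adjusted p = 0.277). PSMA5, the least abundant, had 20.7 FPKM and a log2 fold change of -0.0056. The median over the 7 tested alpha subunits was -0.05.

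Among the constitutive beta subunits, PSMB3, a structural subunit of the inner ring, passed as lower and the other 6 did not pass. PSMB3 read 138.1, 146.9 and 143.1 CPM in control and 123.4, 141.5 and 119.9 CPM after SNHG5 siRNA, so that treated replicate 2 lay within the control range. Its log2 fold change was -0.16 (SE 0.061, adjusted p = 0.0472), and the call was lost in 9 of 14 alternative fits, among them each leave-one-out fit that kept SNHG5 siRNA replicate 2. PSMB4, another structural subunit, had the highest level per length of all members, 244.2 FPKM, and a log2 fold change of -0.02.

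The active-site subunits come in pairs. PSMB5 (chymotrypsin-like activity), PSMB6 (caspase-like) and PSMB7 (trypsin-like) are built into the standard particle, and PSMB8, PSMB9 and PSMB10 take their places in the immunoproteasome, which interferon induces and which cuts peptides suited to MHC class I. None of the standard active-site subunits passed. PSMB5 read 161.2, 167.8 and 161.4 CPM in control and 143.1, 162.4 and 142.2 CPM after SNHG5 siRNA (log2 fold change -0.14, 95% interval -0.26 to -0.02, adjusted p = 0.0660). PSMB7 read 135.6, 145.2 and 137.0 CPM in control and 124.5, 135.9 and 119.2 CPM after SNHG5 siRNA (-0.14, -0.26 to -0.02, adjusted p = 0.0558). For both, treated replicate 2 alone reached the control range, and both passed as lower without it. PSMB6 read 114.4, 128.2 and 116.8 CPM in control and 120.2, 131.3 and 113.9 CPM after SNHG5 siRNA, with overlapping groups and a log2 fold change of 0.02 (-0.11 to 0.15).

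Of the immunoproteasome subunits, PSMB10 and PSMB9 fell and PSMB8 did not pass. PSMB10 (chromosome 16, 67934502 to 67937087, minus strand, GRCh38), the counterpart of PSMB7, read 21.2, 20.7 and 19.9 CPM in control and 15.4, 16.3 and 15.2 CPM after SNHG5 siRNA. Every treated library was below every control library, and the fall was the largest among the members. It was 24.3% on the linear scale, written as a log2 fold change of -0.40 (SE 0.080, adjusted p = 5.91e-04). The size of the fall varied with the fit. It was -0.29 with the GC trend removed, -0.27 on log2(FPKM + 0.1), -0.26 on log2(FPKM + 1) and -0.44 with upper quartile scaling. PSMB9, the counterpart of PSMB6, read 30.7, 27.7 and 29.3 CPM in control and 25.1, 26.4 and 24.6 CPM after SNHG5 siRNA. The groups were again apart, by a narrow gap between treated replicate 2 and control replicate 2, and the log2 fold change was -0.21 (SE 0.075, adjusted p = 0.0332); the call was lost in 8 of 14 alternative fits. PSMB8, the counterpart of PSMB5, read 59.1, 63.2 and 59.0 CPM in control and 64.7, 76.8 and 64.0 CPM after SNHG5 siRNA. All treated libraries lay above all control libraries, yet PSMB8 did not pass (log2 fold change 0.18, SE 0.069, 95% interval 0.03 to 0.32, adjusted p = 0.0506), and it passed as higher in 6 of 14 alternative fits.

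PSMB8 and PSMB9 are neighbours on chromosome 6 (GRCh38, GENCODE v29: PSMB8 at 32840717 to 32844703 on the minus strand, PSMB9 at 32844136 to 32859585 on the plus strand) and their annotated exons overlap, as do those of the antisense gene PSMB8-AS1. Whether reads were counted by strand was not given in the sources used here, so reads of the shared stretch cannot be assigned between them.

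**Figure D2:**
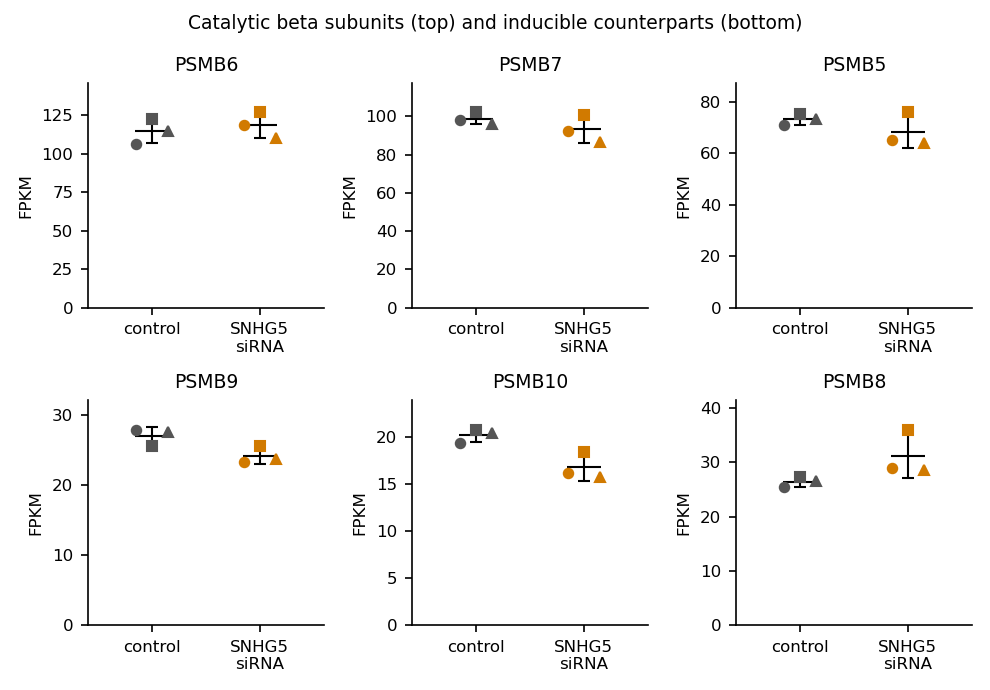
FPKM (y axis, from 0) of the standard active-site subunits (top row) and their inducible counterparts (bottom row) in 3 control and 3 SNHG5 siRNA libraries (x axis); marks are libraries, the dash and bar are mean ± SD. PSMB10 lies lower in all treated libraries, PSMB8 higher, and the inducible subunits are present at 18.5 to 28.8 FPKM beside 70.9 to 116.8 FPKM for the standard ones (means of 6 libraries).

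Set against their standard counterparts per length, the inducible subunits differed in the direction of their ratios. The FPKM ratio of PSMB8 to PSMB5 was 0.358, 0.361 and 0.361 in control and 0.445, 0.475 and 0.447 after SNHG5 siRNA, higher in 3 of 3 treated libraries. The ratio of PSMB10 to PSMB7 was 0.197, 0.204 and 0.212 in control and 0.175, 0.183 and 0.182 after SNHG5 siRNA, lower in 3 of 3. The ratio of PSMB9 to PSMB6 was 0.262, 0.209 and 0.239 in control and 0.197, 0.202 and 0.215 after SNHG5 siRNA, and the groups overlapped; taken from CPM, the ratio was lower in 3 of 3 treated libraries without overlap, and the other 2 pairs kept their direction. A factor common to both genes of a pair cancels in these ratios, which are given without a test.

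The largest rises of proteasome subunits were in the base. PSMC3 (RPT5; chromosome 11, 47418769 to 47426473, minus strand), an ATPase whose tail helps to open the gate of the core, read 182.3, 181.2 and 168.4 CPM in control and 205.7, 227.0 and 212.4 CPM after SNHG5 siRNA. The groups lay apart, and the rise was 20.9% (log2 fold change 0.27, SE 0.054, adjusted p = 5.38e-04). PSMD2 (RPN1; chromosome 3, 184298709 to 184309054, plus strand), the scaffold that receives ubiquitin and the shuttle proteins, read 618.8, 637.7 and 609.0 CPM in control and 708.5, 798.4 and 728.1 CPM after SNHG5 siRNA. Its lowest treated library exceeded its highest control library, and the rise was 19.4% (0.26, SE 0.051, adjusted p = 5.73e-04). Per length PSMD2 was the fifth most abundant member (151.8 FPKM), above every other subunit of the base and lid.

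PSMC5 (RPT6), another ATPase of the ring, passed in the other direction. It read 182.2, 184.0 and 179.4 CPM in control and 160.8, 179.7 and 152.8 CPM after SNHG5 siRNA, with treated replicate 2 inside the control range (log2 fold change -0.15, SE 0.058, adjusted p = 0.0462), and lost its call in 9 of 14 alternative fits. The FPKM ratio of PSMC3 to PSMC5 was 0.902, 0.921 and 0.854 in control and 1.23, 1.17 and 1.30 after SNHG5 siRNA, with no overlap. Of the remaining ATPases, none passed: the log2 fold change was 0.16 for PSMC6 (adjusted p = 0.0577), -0.08 for PSMC4, 0.01 for PSMC2 and -0.00320 for PSMC1. The ubiquitin receptor PSMD4 (-0.01) and the scaffold PSMD1 (0.04) did not pass either; PSMD1 read 262.9, 272.9 and 276.6 CPM in control and 281.1, 278.4 and 280.7 CPM after SNHG5 siRNA. The FPKM ratio of PSMD2 to PSMD1 was 3.28, 3.32 and 3.30 in control and 3.77, 4.44 and 3.85 after SNHG5 siRNA.

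In the lid 1 subunit rose, 1 fell and 6 did not pass. PSMD14 (RPN11), the metalloprotease that cuts the ubiquitin chain off the substrate, read 139.6, 140.9 and 144.6 CPM in control and 156.6, 170.8 and 148.4 CPM after SNHG5 siRNA. The groups did not overlap, and the log2 fold change was 0.16 (SE 0.057, adjusted p = 0.0319); the call was lost in 8 of 14 alternative fits, 5 of them leaving out a library. PSMD6 (RPN7; chromosome 3, 64010549 to 64024010, minus strand), a structural lid subunit, read 108.7, 115.3 and 116.4 CPM in control and 95.1, 100.2 and 95.1 CPM after SNHG5 siRNA. The libraries of each group lay well apart, and the log2 fold change was -0.23 (SE 0.054, adjusted p = 0.00203), kept in every alternative fit but the one on log2(FPKM + 0.1). The lid subunits that did not pass ran from -0.03 (PSMD12) to 0.14 (PSMD7, adjusted p = 0.0848).

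**Figure D3:**
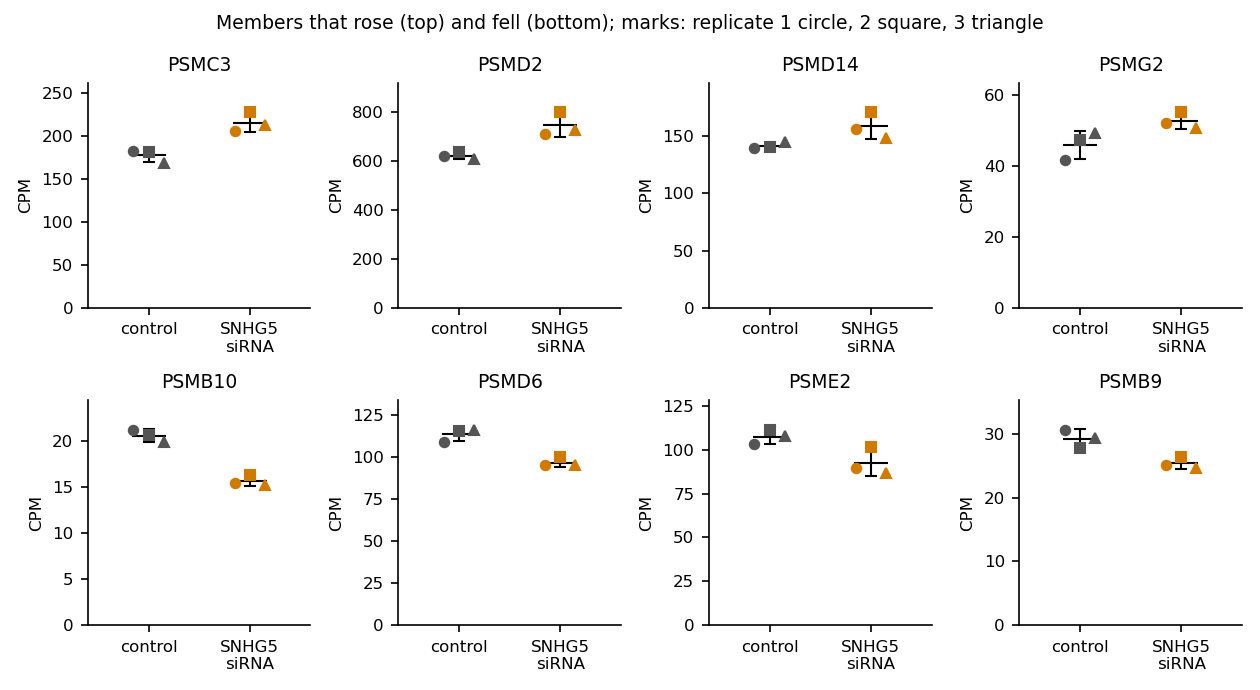
CPM (y axis, from 0) of 4 members that rose (top: PSMC3, PSMD2, PSMD14, PSMG2) and 4 that fell (bottom: PSMB10, PSMD6, PSME2, PSMB9) in 3 control and 3 SNHG5 siRNA libraries (x axis); marks are libraries, the dash and bar are mean ± SD. In all 8 panels the groups do not overlap, and the SNHG5 siRNA square (replicate 2) is the highest of its group.

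Of the 47 tested members, 16 had groups that did not overlap in CPM, as did 49.7% of all tested genes. Of the 16, 9 were higher and 7 lower after SNHG5 siRNA.

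Summed over genes, transcripts of the base and lid were higher relative to those of the core after SNHG5 siRNA. The ratio of summed CPM was 1.24, 1.20 and 1.19 in control and 1.34, 1.30 and 1.36 after SNHG5 siRNA. All treated libraries, SNHG5 siRNA replicate 2 included, were above all control libraries. PSMD2, the member with the most counts, made up part of the difference: without it the ratio was 0.991, 0.957 and 0.950 in control and 1.04, 1.00 and 1.05 after SNHG5 siRNA. Without all 5 base and lid members that passed, it was 0.741, 0.720 and 0.715 in control and 0.779, 0.749 and 0.788 after SNHG5 siRNA. The core sum was left whole in each case, with its 4 members that passed as lower, so called members still enter this ratio. The mean ratio was 1.103 times the control ratio with all members, 1.066 times without PSMD2 and 1.065 times without the 5, and 1.103 times when FPKM were summed instead. The ratios of assembly factors to core and of activators to core overlapped between the groups. The sums, and the members left out, were chosen after values had been seen, so they are given as a description without a test.

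**Figure D4:**
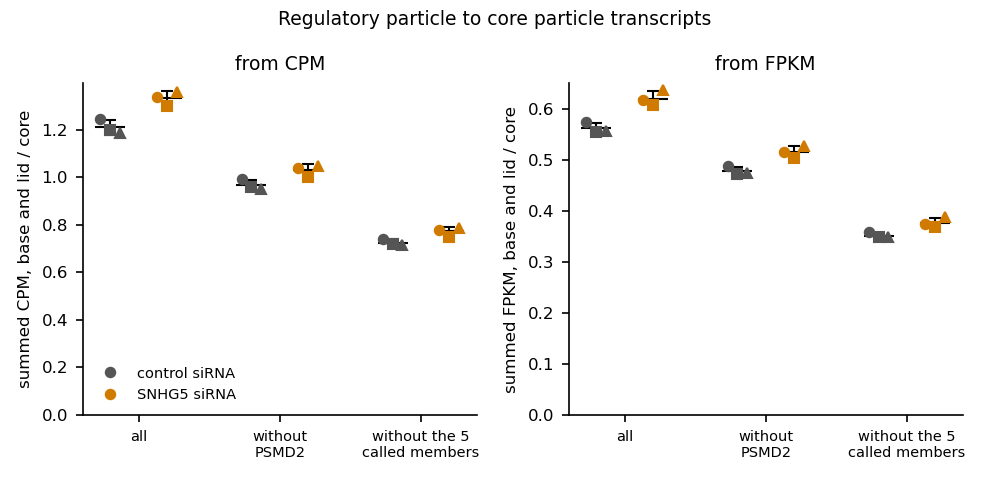
Ratio of summed base and lid to summed core particle transcripts (y axis, from 0) in CPM (left) and FPKM (right), in control (grey) and SNHG5 siRNA (orange) libraries, with all members, without PSMD2 and without the 5 members that passed (x axis); marks are libraries, the dash and bar are mean ± SD. In each of the 6 comparisons the 3 treated libraries lie above the 3 control libraries. Members were left out of the base and lid sum only, and the core sum kept its 4 members that passed as lower.

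Assembly factors are chaperones that bring the subunits together and leave. PSMG1 to PSMG4 build the alpha ring in pairs, and PSMD5, PSMD9 and PSMD10 escort the ATPases of the base. PSMG2 rose and the other 6 did not pass. PSMG2 read 41.6, 47.3 and 49.3 CPM in control and 52.2, 55.2 and 50.8 CPM after SNHG5 siRNA. The groups were separated by a small gap, and the log2 fold change was 0.19 (SE 0.068, adjusted p = 0.0319); the call was lost in 7 of 14 alternative fits. PSMG1, with which PSMG2 forms a pair, did not pass (0.03, adjusted p = 0.721). PSMG4 read 9.81, 12.3 and 10.4 CPM in control and 12.8, 14.2 and 12.0 CPM after SNHG5 siRNA. Its log2 fold change of 0.26 had a wide interval (0.04 to 0.48) and did not pass (adjusted p = 0.0519). PSMG4 passed as higher in 6 of 14 alternative fits. Its partner PSMG3 did not pass either (-0.15, adjusted p = 0.181). PSMD5, PSMD9 and PSMD10 had log2 fold changes of -0.14, 0.02 and 0.11. PSMG4 was also the least abundant tested member per length (0.579 FPKM).

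Of the activators, the PA28 alpha and beta subunits fell. PSME1 and PSME2 form the PA28 ring, which interferon induces and which caps the core without ATP. PSME2 read 103.3, 111.6 and 108.0 CPM in control and 89.6, 101.6 and 86.9 CPM after SNHG5 siRNA; the groups did not overlap, and the log2 fold change was -0.22 (SE 0.062, adjusted p = 0.00856). This call was lost on both FPKM scales, with the GC trend removed and without SNHG5 siRNA replicate 3. PSME1 read 104.0, 104.1 and 107.8 CPM in control and 92.8, 102.6 and 90.9 CPM after SNHG5 siRNA, with groups just apart (-0.15, SE 0.058, adjusted p = 0.0494), and lost its call in 10 of 14 alternative fits. PSME3, the nuclear PA28 gamma, did not pass (0.02, 95% interval -0.09 to 0.12), nor did PSME4 (PA200), an activator found with acetylated histones (0.03, -0.08 to 0.14). PSMF1, an inhibitor of the core, read 79.0, 83.3 and 76.5 CPM in control and 85.8, 87.9 and 85.4 CPM after SNHG5 siRNA, apart but not past the threshold (0.11, adjusted p = 0.112).

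PSMC3IP, which met the name rule but is no part of the proteasome, rose most of all names matched. It read 26.4, 28.9 and 24.9 CPM in control and 37.0, 40.9 and 33.4 CPM after SNHG5 siRNA. Its groups lay far apart (log2 fold change 0.47, SE 0.083, adjusted p = 1.91e-04). Its exons overlap those of MLX on the other strand.

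Next, genes that work with the proteasome but bear other names were read from lists by role. The counts for these lists stand beside 20.3% of all tested genes that rose and 19.9% that fell. Of the other subunits and assembly factors 0 rose and 1 of 5 fell (median log2 fold change 0.11). This was 20% called in either direction, beside 40.2% of all tested genes. ADRM1 (RPN13), the ubiquitin receptor that carries the symbol of an adhesion regulator, read 125.2, 123.5 and 113.9 CPM in control and 95.2, 113.3 and 98.4 CPM after SNHG5 siRNA (-0.25, SE 0.065, adjusted p = 0.00539); both groups were apart by less than 1 CPM, and the call was lost on both FPKM scales and with the GC trend removed. POMP, which matures the core (0.11, adjusted p = 0.245), and SEM1, the smallest lid subunit (0.12, adjusted p = 0.203), did not pass. Among 6 proteasome-associated factors (33.3% called, beside 40.2% of all tested genes; median 0.06), the deubiquitinase UCHL5, which docks on ADRM1, rose (0.27, adjusted p = 0.00228) and ZFAND5, a stimulator of the particle, fell (-0.29, adjusted p = 4.39e-04). The call of UCHL5 was lost on both FPKM scales, where its log2 fold change was as low as 0.13, and ZFAND5 kept its call in all 14 alternative fits.

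Of 10 shuttles and parts of the p97 segregase, which bring substrates to the proteasome, 3 rose and 1 fell, which is the share of genes called among all tested (40.0% and 40.2%; median -0.00067). FAF1 (0.28, adjusted p = 0.00311) and UFD1 (0.20, adjusted p = 0.0270), both partners of p97, rose, as did the shuttle UBQLN2 (0.19, adjusted p = 0.0416). VCP, which is p97 itself, fell (-0.13, adjusted p = 0.0393). The calls of UFD1, UBQLN2 and VCP were lost in 6, 10 and 8 of 14 alternative fits, and FAF1 kept its call in all 14. With upper quartile scaling and on log2(FPKM + 0.1), FAF1 was the 1 rise left. The same held without control replicate 1 or 3, or SNHG5 siRNA replicate 1.

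The list of NFE2L1 and factors tied to it, transcription factors and the enzyme NGLY1, had 7 members, of which 2 rose and 5 fell, beside 40.2% of all tested genes called in either direction (median log2 fold change -0.17). The count of falls was 3 with DESeq2, on log2(FPKM + 0.1), and without control replicate 1 or 3 or SNHG5 siRNA replicate 1 or 3. NFE2L1 read 201.5, 198.5 and 190.1 CPM in control and 282.5, 259.3 and 272.3 CPM after SNHG5 siRNA. The groups lay far apart, and the rise was 37.5% (0.46, SE 0.051, adjusted p = 9.67e-07), kept in all 14 alternative fits. MAFF, a small MAF partner, rose (0.49, adjusted p = 3.17e-04). NGLY1, the enzyme that removes sugars from NFE2L1 protein and so activates it, read 49.0, 47.6 and 51.4 CPM in control and 39.3, 38.2 and 40.1 CPM after SNHG5 siRNA (-0.34, SE 0.061, adjusted p = 2.50e-04). MAFG (-0.26, adjusted p = 0.00128) and NFE2L2 (NRF2), the paralogue that responds to oxidative stress (-0.23, adjusted p = 0.00237), also fell. The remaining falls, MAFK (-0.17, adjusted p = 0.0282) and the repressor BACH1 (-0.17, adjusted p = 0.0491), were named after their values were seen and were lost in 8 and 7 of 14 alternative fits.

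Genes of MHC class I presentation, which uses the peptides that the immunoproteasome makes, passed as lower in 9 of 15 cases and as higher in 2, beside 19.9% and 20.3% of all tested genes (median log2 fold change -0.20). On both FPKM scales 5 passed as lower. IRF1, a transcription factor of the interferon response that drives PSMB9 and TAP1, read 32.7, 34.0 and 31.1 CPM in control and 20.3, 21.3 and 20.2 CPM after SNHG5 siRNA, with groups far apart (-0.67, SE 0.076, adjusted p = 1.23e-06). TAPBP (tapasin) fell (-0.30, adjusted p = 8.73e-05), and so did the peptide transporter TAP1 (-0.27, adjusted p = 9.94e-04), whose gene lies next to PSMB9. The endoplasmic reticulum chaperones CALR (0.45, adjusted p = 2.75e-07) and PDIA3 (0.26, adjusted p = 2.40e-04) rose. Of the leukocyte markers, CD3E and LYZ were at 0 in all libraries, and CD79A and CD14 were below 0.2 CPM in both group means. PTPRC stood at 2.35 CPM in control and 1.91 CPM after SNHG5 siRNA.

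**Figure D5:**
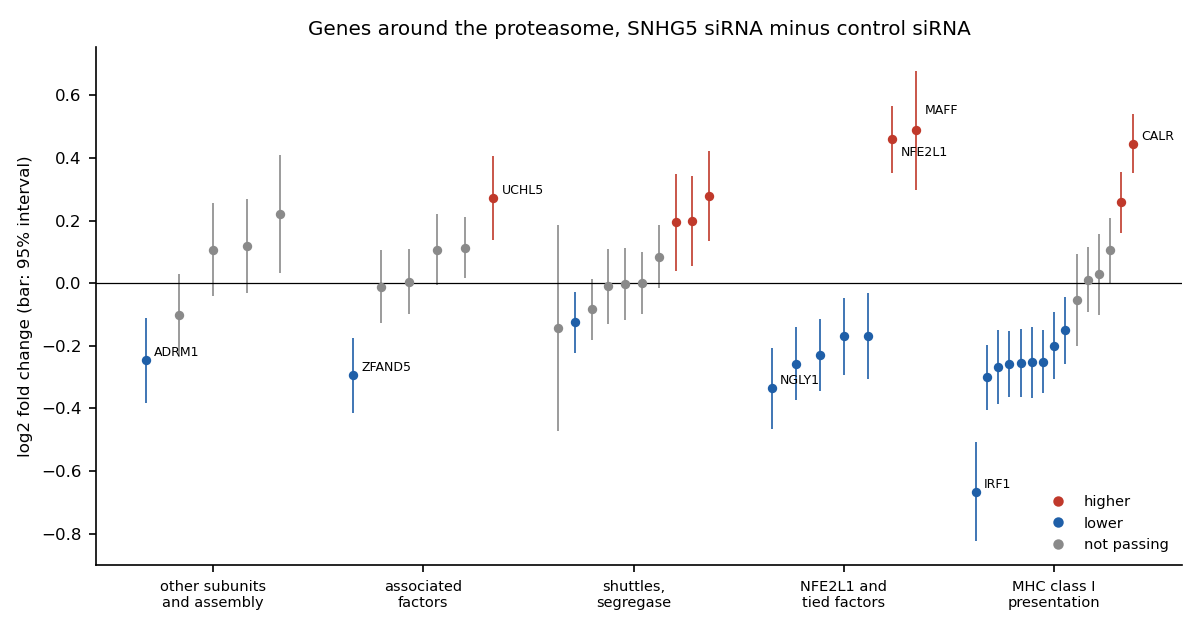
Log2 fold change (y axis, SNHG5 siRNA minus control siRNA, n = 3 libraries a group) of tested genes around the proteasome, in 5 lists (x axis), with the 95% interval as a bar; red passed as higher, blue as lower, grey did not pass. IRF1 (-0.67) lies further from 0 than any of the 47 tested members, which end at -0.40 (PSMB10) and 0.47 (PSMC3IP). Without PSMC3IP, which is no part of the proteasome, the highest member was PSMC3 at 0.27, and NFE2L1 (0.46) lies above it.

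Because NFE2L1 acts through antioxidant response elements, promoters were searched for their core, TGACNNNGC (N is any base), on both strands, from 250 bases before to 50 after each RefSeq start (GRCh38.p14). The motif was found in 15 of the 41 tested members with a promoter in the table (36.6%), and in 19.3% of all 9938 tested genes with one. Counted by window, 15 of 53 promoters of members (28.3%), tested or not, and 13.3% of all 35116 promoters held it. Members that passed are shown with 10 bases on either side of the match, so that the elements can be read beside the values above. They are written on the strand of the gene, with the match in capitals, and a match on the opposite strand reads as the reverse complement.
PSMG2, chr18:12658689-12658717, plus strand: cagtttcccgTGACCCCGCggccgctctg
PSMB3, chr17:38752627-38752655, plus strand: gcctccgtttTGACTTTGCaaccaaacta
PSMB9, chr6:32854034-32854062, plus strand: gggcggggctGCCTCGTCActtgtctcgg
PSMC5, chr17:63827654-63827682, plus strand: gaccggatctGCTGTGTCAgcgccgccct
PSME1, chr14:24136098-24136126, plus strand: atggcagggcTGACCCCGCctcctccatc
PSME2, chr14:24146767-24146795, minus strand: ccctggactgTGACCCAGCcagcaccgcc
Of these 6, out of 15 tested members with a match, PSMG2 rose and the other 5 fell. Their calls were lost in 4 (PSME2) to 10 (PSME1) of 14 alternative fits. Among members without the motif 4 rose and 3 fell; the rises, PSMC3, PSMD2, PSMD14 and PSMC3IP, had no match in these windows. Among all tested genes with the motif 21.9% rose and 20.2% fell, near the 20.3% and 19.9% of all tested genes. A match is a string of letters in a window and not a measured binding site, and no match says only that these letters are not in the window. The box CCAAT was found in 48.8% of the members and 43.7% of tested genes, and CCGGAAG, the core bound by ETS factors, in 36.6% and 22.4%.

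Counts of some members can hold reads of other genes. Exons of 24 of the 49 overlapped those of another annotated gene (PSMG2 with CEP76 and SPIRE1, for example). Named pseudogenes existed for 12, 32 in all, and reads cannot be told apart from theirs where the copies are near-identical. PSMC3, PSMD2 and PSMB10 had no named pseudogene, and PSMC3 and PSMD2 no overlapping exon. Exons of PSMB10 overlapped those of AC040162.1 on the same strand.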

How the data were processed

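RNA of 6 KGN libraries was measured, 3 with control siRNA and 3 with SNHG5 siRNA. The authors deposited counts, whole numbers per gene that were not normalised, and FPKM, which the authors scaled to gene length and library size. Per the submitters' processing notes, reads were trimmed with Trimmomatic, and the genome build was GRCh38. Versions, the aligner, the counter and the annotation are not given in the sources used here. Neither table held other columns (0).

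Counts were scaled by TMM and filtered with filterByExpr, which kept 12508 genes for the quasi-likelihood test of edgeR 4.0.16 (2-sided, R 4.3.3) and left out 7522 names. Benjamini-Hochberg adjustment ran over all tested genes. CPM are counts scaled to the library total. Intervals are 95% and come from the fit; floors of 3 counts cover counting error only. The script was tested on simulated counts. Alternatives used DESeq2 1.42.0, limma 3.58.1 on log2 of the deposited FPKM plus 0.1 or 1, upper quartile scaling, no filter, a replicate block, removal of a length or GC trend (loess, span 0.4, GENCODE v29), and each library left out. Promoters and their sequences are from RefSeq.

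The members and lists were chosen with earlier results of these data known. Members were named if they passed, or if they were active-site subunits, PSMD14, activators, PSMF1 or PSMG factors; values per library are given for the 4 largest rises and falls with a mean of at least 5 CPM, the active-site subunits and assembly factors that passed, and others where a result turned on them. From the other lists up to 3 passing genes per direction were named, and NFE2L1, POMP, SEM1, ADRM1 and TAP1 always. Some listed genes are not reported here, and the counts given for lists are without them.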

Additional observations from a re-analysis of the deposited data

How the results depend on the processing

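The count of members that rose, 5, moved to 3 with upper quartile scaling, 9 without the filter on low counts, 3 with limma on log2(FPKM + 0.1), 3 on log2(FPKM + 1) and 11 with the length trend removed; leaving out 1 library gave 3 to 8. The count that fell, 8, moved to 4 with DESeq2, 3 on log2(FPKM + 0.1), 4 on log2(FPKM + 1) and 4 with the GC trend removed; leaving out 1 library gave 2 to 13. The cause of these moves was not tested. No call of a member or listed gene reversed. Upper quartile scaling left 39.9% of passing genes higher, beside 50.5% with TMM. Over all genes 3546 to 5730 passed, and the members' median ran from -0.05 to 0.03.

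With a replicate block, 9 members rose and 10 fell, and 5714 genes passed. Deviations of same-numbered libraries correlated at 0.046, 0.130 and 0.026, so the numbers were not taken to pair the samples.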
